A study of Mus musculus with 18 samples.

Results

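A set of 10 genes that govern the passage of a cell out of G1 were followed in whole bone marrow of young and adult mice before and after gamma irradiation. They are the D-type cyclins Ccnd1, Ccnd2 and Ccnd3, the E-type cyclins Ccne1 and Ccne2, the cyclin-dependent kinases Cdk2, Cdk4 and Cdk6, and the kinase inhibitors Cdkn1b (p27) and Cdkn2c (p18). The members were taken by name from a list of 10, of 17178 genes with a probe on the array. Ccnd1 had no named probe and was not analysed here, and the other 9 were measured.

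The marrow came from female C3H mice in 6 groups of 3 arrays, at 8 weeks or 1 week of age, either unirradiated or taken 6 h or 24 h after 2 Gy. Each array held the Cy3-labelled RNA of one sample, and the labels describe 3 mice for each time. The labels name no allele or transgene. Whole marrow mixes many cell types, so that fewer cells of a type and less RNA per cell cannot be told apart in any value below.

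In the textbook scheme, growth signals raise D-type cyclins, which bind Cdk4 or Cdk6 and begin to phosphorylate the RB family. E2F factors released from RB switch on E-type cyclins, which drive Cdk2 and the entry into S phase. Inhibitors of the INK4 class such as Cdkn2c bind Cdk4 and Cdk6, and those of the CIP/KIP class such as Cdkn1b and Cdkn1a (p21, a p53 target) act mainly on Cdk2 complexes. In marrow, Ccnd2, Ccnd3 and Cdk6 serve blood progenitors, and Cdkn1b and Cdkn2c limit their division.

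Levels are log2 signal minus the array's 75th percentile, so 0 is the signal of that percentile and one unit is a doubling. Between 21017 and 25552 probes (51.05 to 62.08%) lay well above background on each array, and replicates correlated at r = 0.978 to 0.989. The brightest probe of each of the 9 measured members was well above background on all 18 arrays and never saturated. Differences were tested with limma over 11884 genes, given as log2 difference ± SE with p-values adjusted by Benjamini and Hochberg, and called below 0.05. As a check of the labels, the p53 target Cdkn1a was 2.55 to 2.89 at 6 h and 2.47 to 2.63 at 24 h in 8-week marrow against -0.40 to -0.14 in its controls, and 2.31 to 3.06 at 6 h and 2.44 to 2.89 at 24 h in 1-week marrow against 0.12 to 0.61. No irradiated array overlapped a control in that gene. One array stood apart, since 1-week control replicate 2 had a summed skeletal muscle signal of 267 and cartilage signal of 79.2, in multiples of the 75th percentile, against at most 10.1 and 6.17 on any irradiated 1-week array. Without it, 4 members were still called at 6 h and 4 at 24 h against 1-week controls.

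Irradiation changed several members at each age. In 8-week marrow at 24 h, Ccnd2, Cdk4 and Cdk6 rose while Cdkn2c, Cdkn1b, Ccne2 and Cdk2 fell, which makes 3 higher and 4 lower of 9, beside 57.8% of all tested genes called, 38.3% higher and 19.5% lower. The rise of Cdk6 there is by its brightest probe alone, and averaging the probes of each gene left 4 members called in place of 7. At 6 h in 8-week marrow Ccnd2 and Cdkn1b rose and Ccnd3, Ccne1, Cdk4 and Cdk6 fell (2 higher and 4 lower, beside 46% of all genes, 23.9% and 22.1%). In 1-week marrow at 24 h, Ccnd2 rose and Cdk4, Cdk6 and Cdkn2c fell (1 higher and 3 lower, beside 36% of all genes, 18.4% and 17.6%). At 6 h in 1-week marrow, Cdkn1b and Cdkn2c rose and Cdk4 and Cdk6 fell (2 higher and 2 lower, beside 51.8% of all genes, 25.5% and 26.3%). With 9 members, the counts lie below the share of all genes at 1 week and 6 h and above it in the other comparisons, and this was not tested. What follows concerns which genes moved and how far. The median difference of the members was -0.15 at 8 weeks and 24 h (all genes 0.12), -0.24 at 8 weeks and 6 h (0.02), 0.00 at 1 week and 24 h (-0.01) and -0.12 at 1 week and 6 h (0.00).

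**Figure D1:**
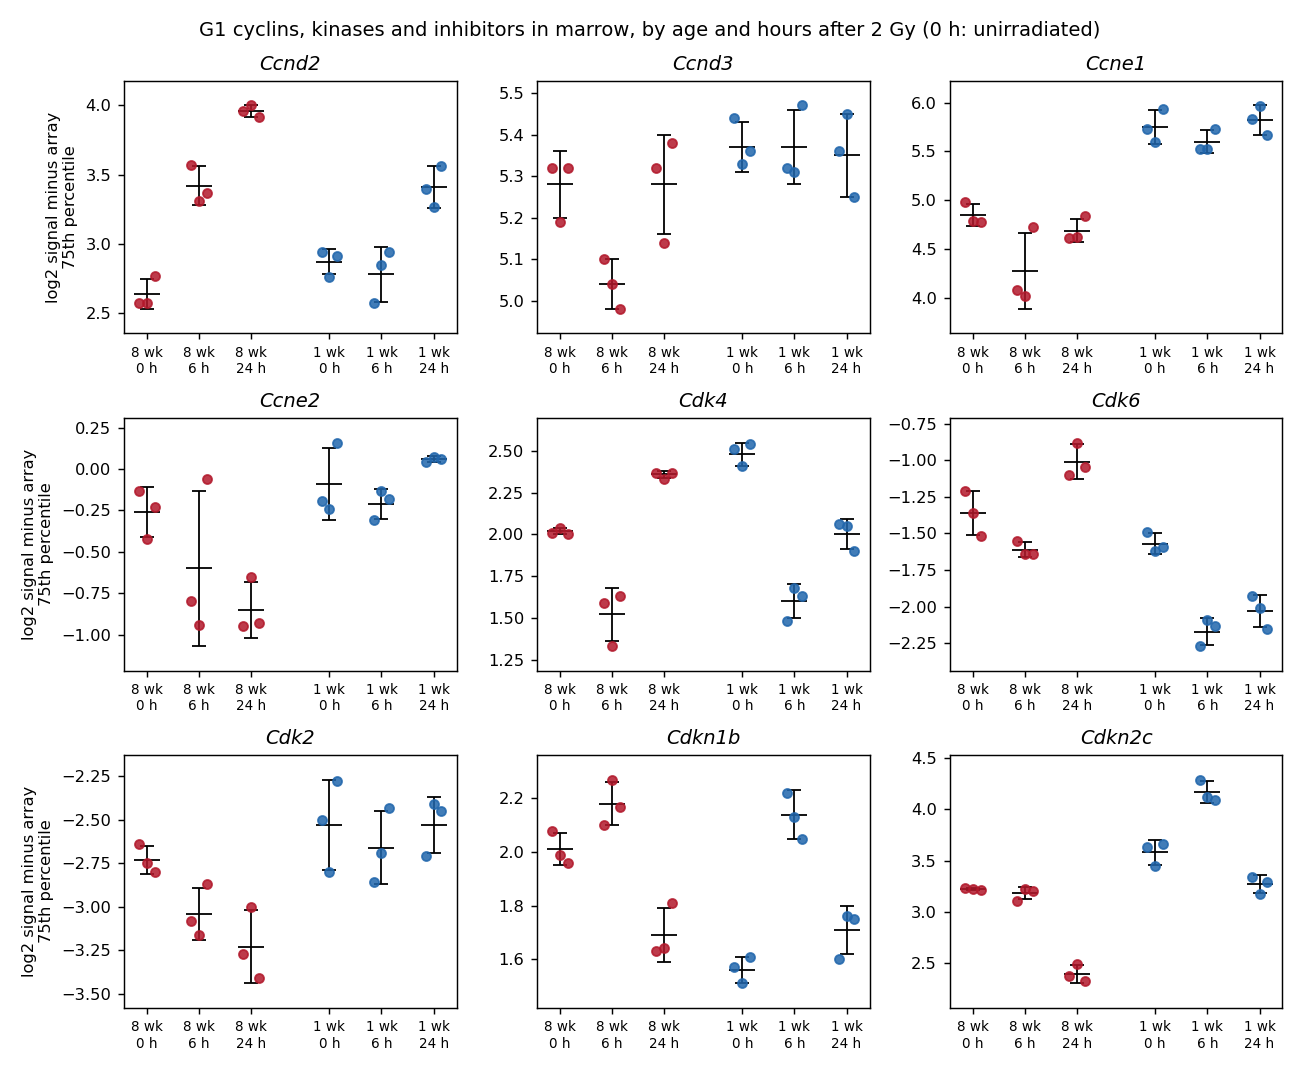
Level of the 9 measured members on every array, as log2 signal minus the array's 75th percentile, at 8 weeks (red, left) and 1 week (blue, right); 0 h is unirradiated marrow, 6 h and 24 h are after 2 Gy, and bars are mean and SD of 3 arrays. The vertical scale differs between panels, Ccnd2 climbs to 3.92 to 4.0 at 24 h in 8-week marrow, and Cdkn2c peaks at 4.09 to 4.29 at 6 h in 1-week marrow.

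Cell-type markers moved in the same samples, and their part in the values of the members was not tested. The summed signal of 12 B-cell precursor genes (such as Rag1 and Cd79a), in multiples of the 75th percentile, was 127 to 157 at 6 h and 101 to 111 at 24 h in 8-week marrow against 372 to 404 in controls. In 1-week marrow the same sum was 127 to 137 at 6 h and 94.3 to 103 at 24 h against 337 to 379. The B-cell precursor signal was therefore below every control at both ages. The sum of 6 early granulocyte genes was 844 to 974 in 8-week marrow at 24 h, against 524 to 546 in its controls. In 1-week marrow at 24 h it was 274 to 309, against 344 to 388 in its controls. In 1-week marrow the sum of 11 erythroid genes was 1190 to 1300 at 6 h and 1000 to 1030 at 24 h. Its controls had 734 to 791. In 8-week marrow this sum was 732 to 882 at 6 h and 642 to 768 at 24 h, against 604 to 609. At 8 weeks and 6 h 8 erythroid genes were called higher and 0 lower, beside 23.9% and 22.1% of all genes. At 8 weeks and 24 h 1 was called higher and 8 lower (median -0.38), beside 38.3% and 19.5%, though the sum lay above its controls. For 12 late neutrophil genes the 8-week sum was 2710 to 2890 at 6 h and 2780 to 2950 at 24 h, against 2010 to 2180. At 1 week it was 1720 to 2090 and 1820 to 1990, against 1170 to 1360. For 9 stem and progenitor genes the 8-week sum was 28.9 to 29.7 at 6 h and 30.4 to 32.6 at 24 h, against 32.0 to 33.4. At 1 week it was 19.9 to 21.4 and 17.6 to 18.4, against 26.9 to 30.2. Signal also moved in stromal and bone cells and in resident macrophages, cells that the marrow holds beside the blood lineages. In 8-week marrow the sum of 15 stromal and bone genes was 66.8 to 100 at 6 h and 158 to 182 at 24 h. Controls there had 41.6 to 56.8. At 8 weeks 15 of 15 were called higher at 24 h (median 1.81), beside 38.3% of all genes, and 14 at 6 h (0.99), beside 23.9%. In 1-week marrow the sum was 317 to 408 at 6 h and 446 to 558 at 24 h, against 293 to 367. In 8-week marrow the sum of 10 resident macrophage genes was 83.6 to 86.3 at 6 h and 139 to 156 at 24 h. Controls there had 37.0 to 44.6. At 8 weeks 10 of 10 were called higher at 24 h (median 1.52) and 9 at 6 h (0.49), beside the same shares of all genes. In 1-week marrow the sum was 18.9 to 22.2 at 6 h and 54.0 to 56.6 at 24 h, against 25.5 to 27.9. There 1 was called higher and 7 lower at 6 h, beside 25.5% and 26.3% of all genes. At 24 h 9 were called higher, beside 18.4%. Of the markers with a probe, Rag2, Mecom and Cd4 were well above background on none of the 18 arrays.

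Ccnd2, the D-type cyclin most responsive to growth signals in blood cells (chr6:127125162-127152188, GRCm38.p6), gave the largest change among the members against controls. In 8-week marrow its level was 2.57, 2.57 and 2.77 in unirradiated mice, 3.31, 3.37 and 3.57 at 6 h and 3.92, 3.96 and 4.0 at 24 h. The 3 sets did not overlap, and the level climbed at each step. The difference from controls was 1.32 ± 0.10 at 24 h (2.5-fold, adjusted p = 1.34e-08) and 0.78 ± 0.10 at 6 h (adjusted p = 1.37e-05). In 1-week marrow Ccnd2 was 2.76, 2.91 and 2.94 unirradiated, 2.57, 2.85 and 2.94 at 6 h and 3.27, 3.40 and 3.56 at 24 h. Controls and 6 h arrays overlapped there, and the 24 h arrays lay above both. The difference from 1-week controls was 0.54 ± 0.10 at 24 h (adjusted p = 0.000423) and -0.09 ± 0.10 at 6 h (95% interval -0.29 to 0.12, adjusted p = 0.476). Ordered by mean, 8-week controls, 1-week 6 h and 1-week controls were the lowest and overlapped as neighbours, 1-week 24 h and 8-week 6 h overlapped above them, and 8-week 24 h stood alone at the top. Ccnd2 had 3 probes, and the other 2 gave 1.53 and 1.27 for 8 weeks at 24 h.

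Ccnd3, the D-type cyclin used by developing lymphoid and red cells (chr17:47505051-47599689), moved little. Its level in 8-week marrow was 5.19, 5.32 and 5.32 unirradiated, 4.98, 5.04 and 5.10 at 6 h and 5.14, 5.32 and 5.38 at 24 h. Only the 6 h arrays lay below all controls, with a difference of -0.24 ± 0.07 (adjusted p = 0.0114), and at 24 h it was 0.01 ± 0.07. All 9 arrays of 1-week marrow lay between 5.25 and 5.47, and the differences from control were -0.02 ± 0.07 at 24 h and -0.01 ± 0.07 at 6 h, each with a 95% interval within 0.17 of 0. In the order of means, 8-week marrow at 6 h was the lowest and apart from the rest, and the 5 other groups overlapped as neighbours.

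Cdk4, the catalytic partner of D-type cyclins (chr10:127063535-127067288), fell at 6 h at both ages. In 8-week marrow its level was 2.00, 2.01 and 2.04 unirradiated, 1.33, 1.59 and 1.63 at 6 h and 2.33, 2.37 and 2.37 at 24 h. The 6 h arrays were all below and the 24 h arrays all above the controls. The difference from controls was 0.34 ± 0.07 at 24 h (adjusted p = 0.001) and -0.50 ± 0.07 at 6 h (adjusted p = 7.09e-05). At 1 week the Cdk4 level was 2.41, 2.51 and 2.54 unirradiated, 1.48, 1.63 and 1.68 at 6 h and 1.90, 2.05 and 2.06 at 24 h. Every irradiated 1-week array lay below every control, with -0.48 ± 0.07 at 24 h (adjusted p = 9.35e-05) and -0.89 ± 0.07 at 6 h (adjusted p = 1.18e-07). The 1-week level at 6 h thus fell by 46% relative to its controls. By mean level, 8-week 6 h and 1-week 6 h were lowest and overlapped, 1-week 24 h and 8-week controls overlapped in the middle, and 8-week 24 h and 1-week controls followed without overlap.

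The promoter window of Cdk4 is shown because it is crowded with one motif. It spans 250 bases before to 50 after the annotated start (RefSeq, GRCm38.p6, chr10:127063285-127063584, plus strand), written 5′ to 3′ with the E box CACGTG, the letters bound by MYC with MAX among other factors, in capitals. The E box was searched only after the window had been read.
Cdk4: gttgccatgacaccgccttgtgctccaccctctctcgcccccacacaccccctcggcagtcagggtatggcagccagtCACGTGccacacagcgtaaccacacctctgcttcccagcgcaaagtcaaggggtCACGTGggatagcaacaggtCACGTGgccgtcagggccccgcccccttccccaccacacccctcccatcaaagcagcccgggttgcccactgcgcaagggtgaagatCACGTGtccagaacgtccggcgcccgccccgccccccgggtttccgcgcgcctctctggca
It holds 4 E boxes, which read alike on both strands, and 3 GC boxes (GGGCGG, both strands) but no E2F core. An E box is present in 7.15% of all 32851 promoter windows, and 8 of those windows hold 4 or more. Among the members 3 hold an E box, Cdk4 and, with 1 each, Cdk6 and Cdkn2c. Myc itself, on its own probe, was 2.10, 2.33 and 2.38 in 8-week controls, 2.14, 2.16 and 2.34 at 6 h and 2.25, 2.32 and 2.67 at 24 h. In 1-week marrow Myc was 2.28, 2.48 and 3.02 in controls, 1.34, 1.52 and 1.65 at 6 h and 2.01, 2.10 and 2.14 at 24 h. Myc fell by 1.09 on the log2 scale at 6 h in 1-week marrow (adjusted p = 1.83e-05). At 6 h in 8-week marrow Myc gave -0.06 ± 0.15 (adjusted p = 0.782). For Mycn the differences at 6 h were -0.83 at 1 week (adjusted p = 0.000323) and 0.31 at 8 weeks (adjusted p = 0.12). At 24 h Mycn gave -0.96 at 1 week (adjusted p = 0.000166) and 0.43 at 8 weeks (adjusted p = 0.0258). Any link of Myc or Mycn to the level of Cdk4 was not tested.

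Cdk6, the other partner of D-type cyclins and the one more tied to blood progenitors (chr5:3341004-3531008), fell in 1-week marrow at 6 h by both of its probes, and its other calls rest on the brightest probe. By that probe it was -1.52, -1.36 and -1.21 in 8-week controls, -1.64, -1.64 and -1.55 at 6 h and -1.1, -1.05 and -0.88 at 24 h. The 24 h arrays lay above and the 6 h arrays below the controls, with 0.35 ± 0.10 at 24 h (adjusted p = 0.00512) and -0.24 ± 0.10 at 6 h (adjusted p = 0.0481). The 6 h call was lost without any one of 8-week control replicates 1 and 2 and 8-week 6 h replicates 1, 2 and 3 (-0.17 to -0.27, adjusted p 0.054 to 0.209). At 1 week the same probe gave -1.62, -1.59 and -1.49 unirradiated, -2.27, -2.13 and -2.09 at 6 h and -2.15, -2.01 and -1.93 at 24 h. All irradiated 1-week arrays lay below the controls, with -0.46 ± 0.10 at 24 h (adjusted p = 0.00129) and -0.60 ± 0.10 at 6 h (adjusted p = 7.93e-05). The second Cdk6 probe, dimmer and well above background on 17 arrays, did not show the rise at 8 weeks and 24 h, where it gave -0.63 (adjusted p = 0.0581). With the mean of both probes that difference was -0.14 (adjusted p = 0.455). At 1 week and 6 h both probes were lower, the second with -0.85 (adjusted p = 0.0174). At 1 week and 24 h the second probe gave -0.13 (adjusted p = 0.773), and the mean of both -0.29 (adjusted p = 0.159). The direction of Cdk6 at 8 weeks and 24 h is therefore unsettled on this array, and that at 1 week and 6 h is the same by both probes. By the brightest probe, 1-week 6 h and 1-week 24 h were lowest and overlapped, 8-week 6 h, 1-week controls and 8-week controls overlapped as neighbours, and 8-week 24 h was the highest.

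**Figure D2:**
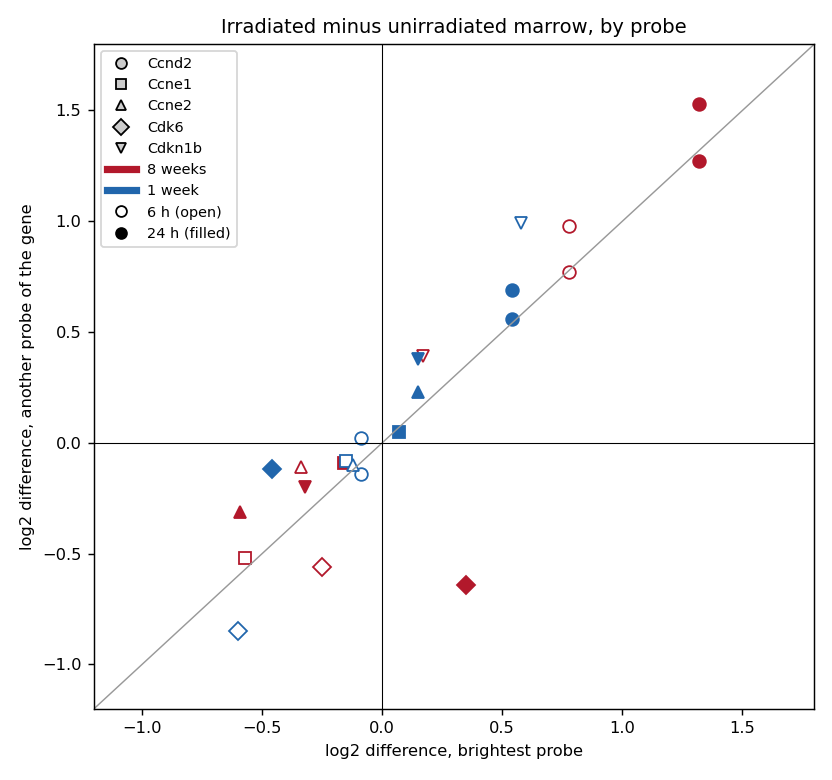
Log2 difference of irradiated minus unirradiated marrow of the same age by the brightest probe of a gene (horizontal) and by another probe of the same gene (vertical), for the members with a second probe above background on most arrays; the diagonal marks equality. Ccnd2 lies near the diagonal, and Cdk6 in 8-week marrow at 24 h lies to the right of 0 by one probe and below 0 by the other.

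Ccne1 and Ccne2 encode the E-type cyclins that activate Cdk2. Ccne1 (chr7:38097984-38107490) was 4.78, 4.79 and 4.98 in 8-week controls, 4.02, 4.08 and 4.73 at 6 h and 4.62, 4.63 and 4.84 at 24 h. The 6 h arrays all lay below the controls, one of them by little, with -0.57 ± 0.15 (adjusted p = 0.00471), and the 24 h arrays overlapped the controls with -0.15 ± 0.15 (adjusted p = 0.384). In 1-week marrow Ccne1 was 5.60, 5.73 and 5.93 unirradiated, 5.53, 5.53 and 5.73 at 6 h and 5.67, 5.83 and 5.96 at 24 h. Those 3 groups overlapped, with 0.07 ± 0.15 at 24 h and -0.15 ± 0.15 at 6 h. All 9 arrays of 8-week marrow lay below all 9 of 1-week marrow, and neighbours in the order of means overlapped within each age.

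Ccne2 (chr4:11190433-11204779) was -0.42, -0.23 and -0.13 in 8-week controls, -0.94, -0.80 and -0.06 at 6 h and -0.95, -0.93 and -0.65 at 24 h. The 24 h arrays all lay below the controls, with -0.58 ± 0.17 (adjusted p = 0.00787), whereas its second probe gave -0.31 (adjusted p = 0.229). At 6 h the difference was -0.34 ± 0.17 (adjusted p = 0.117), and without 8-week 6 h replicate 3, which lay above the controls, it was -0.61 (adjusted p = 0.00102). At 1 week Ccne2 was -0.24, -0.19 and 0.16 unirradiated, -0.31, -0.18 and -0.13 at 6 h and 0.04, 0.06 and 0.07 at 24 h. These overlapped the controls, with 0.15 ± 0.17 at 24 h and -0.12 ± 0.17 at 6 h. Every pair of neighbours in the order of its group means overlapped.

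Cdk2, the kinase of the G1 to S step (chr10:128697938-128705051), fell in 8-week marrow at 24 h. Its level was -2.80, -2.75 and -2.64 in 8-week controls, -3.16, -3.08 and -2.87 at 6 h and -3.41, -3.27 and -3.00 at 24 h. All 6 irradiated 8-week arrays lay below all 3 controls. The difference passed the threshold at 24 h, with -0.49 ± 0.16 (adjusted p = 0.0143), and at 6 h it was -0.30 ± 0.16 (adjusted p = 0.132). With normexp background correction the 24 h difference was -0.18 (adjusted p = 0.202), and it missed the threshold without 8-week control replicate 1 (-0.45, adjusted p = 0.0516) or 8-week 24 h replicate 3 (-0.40, adjusted p = 0.0664). At 1 week Cdk2 was -2.80, -2.50 and -2.28 unirradiated, -2.86, -2.69 and -2.43 at 6 h and -2.71, -2.45 and -2.41 at 24 h, with wide overlap and 0.00 ± 0.16 at 24 h and -0.13 ± 0.16 at 6 h. By mean, 8-week 24 h and 8-week 6 h were lowest and overlapped, and the 4 other groups overlapped as neighbours. The second Cdk2 probe was well above background on 1 of 18 arrays.

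Promoter windows were found for 7 members (9 windows). The E2F core, searched on both strands as GCGCGAA or GCGGGAA, and likewise with GCGCCAA or with GCGGCAA, is held by windows of 2 members, Cdk2 and Cdkn2c. It is held by 9.57% of all windows, and by a window of 10.9% of all genes that have one. The GC box is held by windows of 6 members, by 35.7% of all windows and by a window of 38.2% of those genes. The 2 windows with an E2F core are shown 5′ to 3′ on the gene's strand with the core in capitals (RefSeq, GRCm38.p6), Cdk2 at chr10:128705002-128705301 and Cdkn2c at chr4:109666707-109667006, both minus strand.
Cdk2: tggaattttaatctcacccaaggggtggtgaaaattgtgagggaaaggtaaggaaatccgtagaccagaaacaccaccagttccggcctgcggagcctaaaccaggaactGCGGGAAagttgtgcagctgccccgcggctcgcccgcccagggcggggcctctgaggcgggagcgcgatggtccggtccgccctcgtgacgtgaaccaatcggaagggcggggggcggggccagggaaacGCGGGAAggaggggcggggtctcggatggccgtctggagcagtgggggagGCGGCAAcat
Cdkn2c: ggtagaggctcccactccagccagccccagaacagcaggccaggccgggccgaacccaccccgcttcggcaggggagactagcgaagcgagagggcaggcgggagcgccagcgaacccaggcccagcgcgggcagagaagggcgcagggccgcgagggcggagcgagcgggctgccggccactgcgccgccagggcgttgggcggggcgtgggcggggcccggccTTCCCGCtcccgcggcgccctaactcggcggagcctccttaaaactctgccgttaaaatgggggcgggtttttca
In the Cdk2 window 3 cores begin at positions -140, -10 and 41 relative to the start base, which counts as 1, and no core overlaps one of its 6 GC boxes. The Cdkn2c window has 1 core, on the opposite strand at position -25, among 4 GC boxes. These are matches of letters and not shown sites.

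Cdkn1b, the CIP/KIP inhibitor p27 (chr6:134920401-134925525), rose in 1-week marrow at 6 h. In 8-week marrow its level was 1.96, 1.99 and 2.08 unirradiated, 2.10, 2.17 and 2.27 at 6 h and 1.63, 1.64 and 1.81 at 24 h. The 24 h arrays lay below and the 6 h arrays just above the controls, with -0.32 ± 0.07 at 24 h (adjusted p = 0.000843) and 0.17 ± 0.07 at 6 h (adjusted p = 0.0475). The 6 h call was lost without any one of 8-week control replicates 2 and 3 and 8-week 6 h replicates 2 and 3 (0.13 to 0.18, adjusted p 0.0766 to 0.185). In 1-week marrow it was 1.51, 1.57 and 1.61 unirradiated, 2.05, 2.13 and 2.22 at 6 h and 1.60, 1.75 and 1.76 at 24 h. Only the 6 h arrays lay clear of the controls, with 0.57 ± 0.07 (adjusted p = 4.22e-06), against 0.14 ± 0.07 at 24 h (adjusted p = 0.117). The second Cdkn1b probe gave -0.20 at 8 weeks and 24 h (adjusted p = 0.18) and 0.40 at 8 weeks and 6 h (adjusted p = 0.0186). At 1 week it gave 0.38 at 24 h (adjusted p = 0.0291), where the brightest probe was not called, and 0.99 at 6 h (adjusted p = 8.85e-06). By mean, 1-week controls were lowest, followed by 8-week 24 h and 1-week 24 h, which overlapped. The lowest 1-week 24 h array, at 1.60, also overlapped the 1-week controls. The 8-week controls, 1-week 6 h and 8-week 6 h overlapped as neighbours at the top.

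Cdkn2c, the INK4 inhibitor p18 (chr4:109660876-109666756), moved in opposite ways at the 2 times in 1-week marrow. In 8-week marrow it was 3.21, 3.22 and 3.23 unirradiated, 3.10, 3.20 and 3.22 at 6 h and 2.32, 2.37 and 2.49 at 24 h. The 24 h arrays stood far below the rest, with -0.83 ± 0.07 (adjusted p = 6.96e-08), and at 6 h the difference was -0.05 ± 0.07 (adjusted p = 0.622). In 1-week marrow it was 3.45, 3.63 and 3.66 unirradiated, 4.09, 4.12 and 4.29 at 6 h and 3.17, 3.29 and 3.34 at 24 h. All 6 h arrays lay above and all 24 h arrays below the controls, with -0.31 ± 0.07 at 24 h (adjusted p = 0.00235) and 0.58 ± 0.07 at 6 h (adjusted p = 4.69e-06). By mean, 8-week 24 h was lowest, 8-week 6 h, 8-week controls and 1-week 24 h overlapped as neighbours, and 1-week controls and 1-week 6 h followed without overlap.

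**Figure D3:**
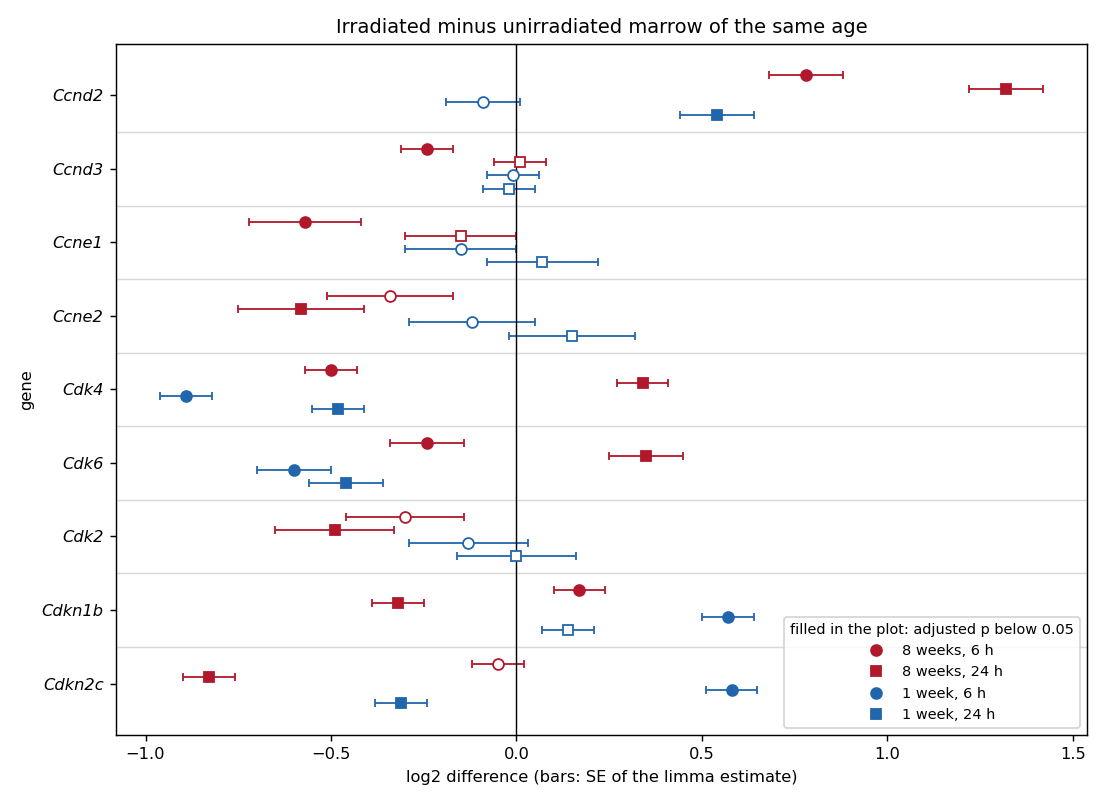
Log2 difference of irradiated minus unirradiated marrow of the same age for each member, with the SE of the limma estimate, at 8 weeks (red) and 1 week (blue), 6 h (circles) and 24 h (squares); filled symbols have adjusted p below 0.05. At 24 h in 8-week marrow Ccnd2 stands at 1.32 and Cdkn2c at -0.83, and Cdk4 and Cdk6 lie on opposite sides of 0 at the 2 ages.

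Whether the responses differed between ages was tested as a difference of differences. At 24 h, 6 of 9 members passed, 3 higher and 3 lower at 8 weeks relative to 1 week, beside 42.1% of all genes (28.5% higher and 13.5% lower). Cdk4 (0.82 ± 0.11, adjusted p = 2.29e-05), Cdk6 (0.81 ± 0.14, adjusted p = 0.000234) and Ccnd2 (0.79 ± 0.14, adjusted p = 0.000351) responded more positively at 8 weeks. Ccne2 (-0.73 ± 0.24, adjusted p = 0.0235), Cdkn2c (-0.51 ± 0.10, adjusted p = 0.000736) and Cdkn1b (-0.46 ± 0.10, adjusted p = 0.00134) responded more negatively. The second Cdk6 probe gave -0.51 for this difference (adjusted p = 0.313), and the second Ccne2 probe gave -0.54 (adjusted p = 0.166). With normexp background correction Cdkn1b missed the threshold (-0.31, adjusted p = 0.0707). Ccne2 also missed the threshold without any one of 1-week control replicates 1 and 2, 8-week control replicate 1 and 8-week 24 h replicates 1 and 3 (-0.68 to -0.66, adjusted p 0.0503 to 0.0571), and Cdk2, at -0.50 ± 0.23 (adjusted p = 0.0887), passed without 1-week control replicate 3 (-0.62, adjusted p = 0.0418). By their brightest probes, Cdk4 and Cdk6 were the members called higher at 8 weeks and lower at 1 week at 24 h. Cdk4 had 1 named probe, so its direction could not be checked by another.

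At 6 h, 4 of 9 members differed between ages, 2 in each direction, beside 18.6% of all genes (10.5% higher and 8.09% lower). Ccnd2 (0.87 ± 0.14, adjusted p = 0.00068) and Cdk4 (0.39 ± 0.11, adjusted p = 0.0178) responded more positively at 8 weeks, Cdk4 with a smaller fall there. Cdkn2c (-0.63 ± 0.10, adjusted p = 0.000634) and Cdkn1b (-0.40 ± 0.10, adjusted p = 0.0103) responded more negatively, their rise at 1 week being larger than the value at 8 weeks. Cdk4 missed the threshold without 1-week 6 h replicate 1 (0.33, adjusted p = 0.0508). With normexp background correction only Ccnd2 of these 4 passed. Without 8-week 6 h replicate 3, Ccne1 (-0.64, adjusted p = 0.00722) and Ccne2 (-0.49, adjusted p = 0.0494) passed as well.

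Some members also differed between the ages in the same condition. In unirradiated marrow, 8-week levels were higher for 1 member and lower for 4, beside 64.9% of all genes called (27.4% higher and 37.5% lower). The number of members called thus lies below the share of all genes, and what follows concerns which genes differed and how far. Cdkn1b was higher by 0.44 ± 0.07 (adjusted p = 2.83e-05). Ccne1 (-0.90 ± 0.15, adjusted p = 4.57e-05), Cdk4 (-0.47 ± 0.07, adjusted p = 3.88e-05), Cdkn2c (-0.36 ± 0.07, adjusted p = 0.000283) and Ccnd2 (-0.24 ± 0.10, adjusted p = 0.0439) were lower at 8 weeks. The Ccnd2 arrays of the 2 ages overlapped, and its call was lost without any one of 1-week control replicates 1 and 3 and 8-week control replicates 1 and 2 (adjusted p 0.108 to 0.132). Without 8-week control replicate 3, Cdk6 passed as well (0.28, adjusted p = 0.0262).

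At 6 h after irradiation, 2 members were higher and 4 lower at 8 weeks than at 1 week, beside 64.3% of all genes (28.2% higher and 36% lower). The number called lies near that share. Ccnd2 (0.63 ± 0.10) and Cdk6 (0.56 ± 0.10) were higher, and Ccne1 (-1.32 ± 0.15), Cdkn2c (-0.99 ± 0.07), Cdk2 (-0.38 ± 0.16) and Ccnd3 (-0.32 ± 0.07) were lower, with adjusted p from 5.46e-09 for Cdkn2c to 0.0486 for Cdk2. The Cdk2 call was lost without any one of 1-week 6 h replicates 2 and 3 and 8-week 6 h replicates 1 and 2 (-0.39 to -0.26, adjusted p 0.0744 to 0.197), and Ccne2 passed without 8-week 6 h replicate 3 (-0.66, adjusted p = 0.000192). The Cdkn2c difference at 6 h amounted to -49.7% of the 1-week signal. At 24 h, 3 were higher and 4 lower, beside 61.3% (33.5% higher and 27.7% lower). The higher calls lie near their share and the lower calls above theirs, and this was not tested. Cdk6 (1.02 ± 0.10), Ccnd2 (0.55 ± 0.10) and Cdk4 (0.36 ± 0.07) were higher at 8 weeks, and Ccne1 (-1.13 ± 0.15), Ccne2 (-0.90 ± 0.17), Cdkn2c (-0.87 ± 0.07) and Cdk2 (-0.70 ± 0.16) were lower. The second Cdk6 probe gave -0.23 at 24 h (adjusted p = 0.485) and 0.56 at 6 h (adjusted p = 0.086). Marker sums differed between the ages too, the stromal and bone list being 41.6 to 56.8 in 8-week controls and 293 to 367 in 1-week controls, and early granulocytes 524 to 546 and 344 to 388. Their part in the age differences was not tested.

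**Figure D4:**
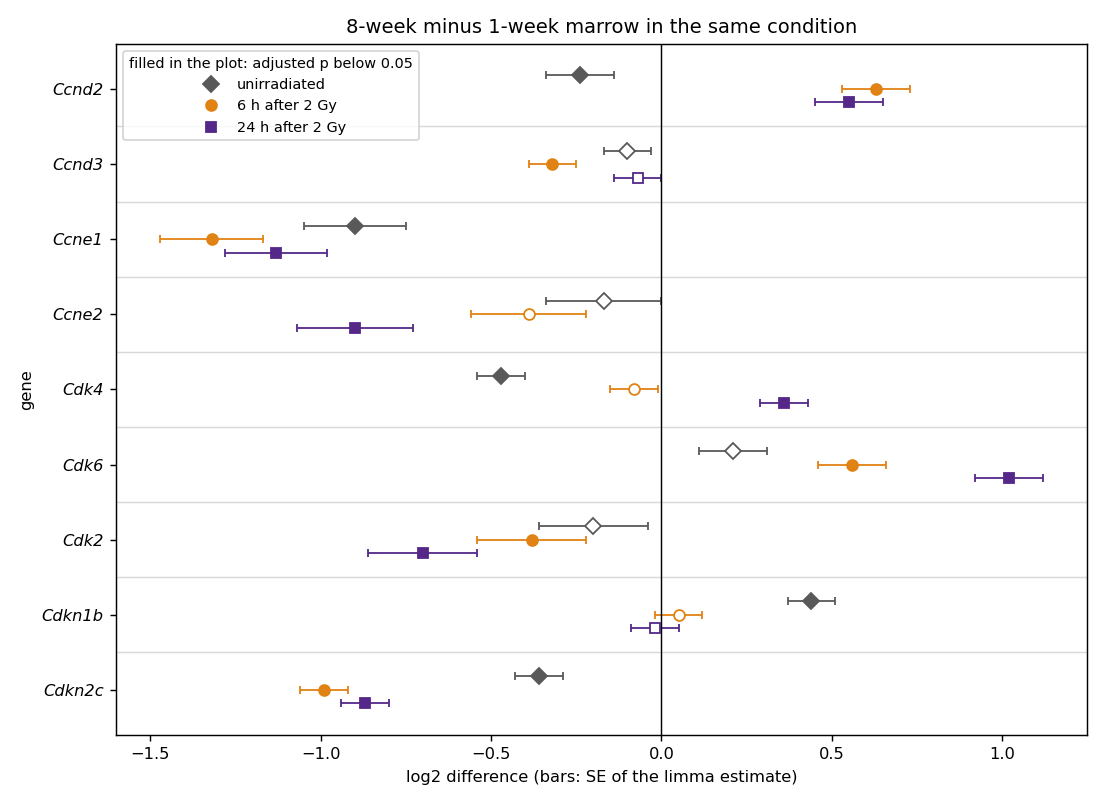
Log2 difference of 8-week minus 1-week marrow for each member in unirradiated mice (diamonds), 6 h (circles) and 24 h (squares) after 2 Gy, with the SE of the limma estimate; filled symbols have adjusted p below 0.05. Ccne1 and Cdkn2c lie below 0 and are filled in all 3 conditions. Ccnd3, Ccne2 and Cdk2 also lie below 0 in all 3 but are not filled in each. Ccnd2 lies at -0.24 in unirradiated marrow and above 0.5 after irradiation.

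Between 6 h and 24 h, 8-week marrow changed in 7 members, 5 higher and 2 lower at 24 h, beside 49.4% of all genes (33% higher and 16.5% lower). Cdk4 (0.84 ± 0.07), Cdk6 (0.60 ± 0.10), Ccnd2 (0.54 ± 0.10), Ccne1 (0.42 ± 0.15) and Ccnd3 (0.24 ± 0.07) were higher, and Cdkn2c (-0.78 ± 0.07) and Cdkn1b (-0.49 ± 0.07) lower. The value of Cdk6 is from its brightest probe, and the second gave -0.07 (adjusted p = 0.853) and the mean of both 0.26 (adjusted p = 0.18). The Ccne1 call was lost without 8-week 6 h replicate 1 or 2 or 8-week 24 h replicate 3 (0.29 to 0.35, adjusted p 0.0999 to 0.142), and that of Ccnd3 without 8-week 24 h replicate 3 (0.19, adjusted p = 0.0506). In 1-week marrow 4 changed, beside 36.2% of all genes (18.6% higher and 17.6% lower), with Ccnd2 (0.62 ± 0.10) and Cdk4 (0.40 ± 0.07) higher and Cdkn2c (-0.90 ± 0.07) and Cdkn1b (-0.43 ± 0.07) lower at 24 h. Thus Ccnd2 and Cdk4 rose and both inhibitors fell over these hours at each age. Across the 18 arrays the levels of Cdk4 and Cdkn1b were opposed (r = -0.892), as were Cdk6 and Cdkn2c (-0.799) and Ccnd2 and Cdkn2c (-0.755), while Ccne2 and Cdk2 ran together (0.899). These correlations describe arrays that share 6 group means.

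Other genes of the pathway were read from lists. Of 22 E2F targets of the G1 to S step, such as the Mcm helicase genes and Tk1, 7 were lower and 0 higher at 24 h and 20 lower and 0 higher at 6 h in 8-week marrow against controls, with a list median of -0.39 at 6 h (all genes 0.02). Of all tested genes, 19.5% were called lower in the first of these comparisons and 22.1% in the second, so the 24 h count is nearer to that share than the 6 h count. In 1-week marrow 3 were lower at 24 h and 9 at 6 h, and none higher at an adjusted p below 0.05 by limma, beside 17.6% and 26.3% of all genes called lower. Uhrf1, a maintenance factor of DNA methylation, gave -0.72 ± 0.08 at 8 weeks and 6 h (adjusted p = 6.29e-06) and -0.46 ± 0.08 at 1 week and 6 h (adjusted p = 0.00024). In unirradiated marrow all 22 were lower at 8 weeks (list median -0.60, all genes -0.09), beside 37.5% of all genes, among them Tk1, thymidine kinase, with -0.70 ± 0.07. The fall of Ccne1 at 6 h in 8-week marrow and its lower level at 8 weeks thus ran in the same direction as this list.

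Among 18 genes of the RB and E2F family, 11 were lower and 0 higher at 24 h in 8-week marrow, and 7 lower and 4 higher at 6 h. The calls over all genes were 19.5% lower and 38.3% higher at 24 h and 22.1% and 23.9% at 6 h. In 1-week marrow 1 was lower and 6 higher at 24 h, and 3 lower and 5 higher at 6 h, beside 17.6% and 18.4%, and 26.3% and 25.5%, of all genes. The 1-week counts at 6 h and the 8-week count of higher calls at 6 h are near or below those shares. Without 1-week control replicate 2, the array with muscle and cartilage signal, the 1-week counts were 3 lower and 4 higher at 24 h and 4 and 5 at 6 h. Rbl2, which encodes the RB relative p130 of resting cells, rose by 0.77 ± 0.07 at 8 weeks and 6 h and by 0.79 ± 0.07 at 1 week and 6 h (adjusted p = 5.95e-07 and 2.69e-07). E2f1, an activating E2F, gave -0.69 ± 0.06 at 8 weeks and 6 h (adjusted p = 1.84e-07), and its response at 6 h was lower at 8 weeks than at 1 week (-0.65 ± 0.08, adjusted p = 8.89e-05). Of 5 tested cyclins and kinases of S to M phase, all 5 rose in 1-week marrow at 6 h, Ccnb2 by 0.62 ± 0.08, beside 25.5% of all genes called higher, but without 1-week control replicate 2 Ccnb1 missed the threshold (0.23, adjusted p = 0.0657) and 4 rose. At 24 h 0 were called. In 8-week marrow 0 were called at 6 h and 2 fell at 24 h, Ccna2 with -0.58 ± 0.10 (adjusted p = 7.78e-05).

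Of 4 other tested CDK inhibitors, 3 rose and 0 fell at 6 h at 8 weeks, and 3 rose at 6 h at 1 week, beside 23.9% and 25.5% of all genes called higher. Cdkn1c (p57), the fourth, was called lower at 6 h at 1 week only with 1-week control replicate 2 in the fit. It was 1.91, 1.62 and 1.88 at 6 h, against 2.28, 4.83 and 1.91 in controls, where 4.83 is replicate 2. Without that array the difference was -0.29 ± 0.13 (adjusted p = 0.089). Cdkn1a changed most, by 2.97 ± 0.16 at 8 weeks and 6 h (adjusted p = 9.93e-10) and 2.33 ± 0.16 at 1 week and 6 h (adjusted p = 1.84e-08). The difference between these responses was 0.64 ± 0.23 (adjusted p = 0.064). In the 6 h difference between ages, 0 of the 4 inhibitors were called higher and 1 lower, beside 10.5% and 8.09% of all genes. Without 1-week control replicate 2 these counts were 1 and 0. Cdkn2d (p19), the INK4 relative of Cdkn2c, rose by 0.32 ± 0.08 at 8 weeks and 6 h and by 0.65 ± 0.08 at 1 week and 6 h. At 24 h Cdkn2d gave -0.32 ± 0.08 at 8 weeks (adjusted p = 0.00258) and -0.10 ± 0.08 at 1 week (adjusted p = 0.348). Among 9 further G1 or atypical cyclins and kinases, Ccng1, a p53 target, rose by 3.18 ± 0.08 at 8 weeks and 6 h and 3.27 ± 0.08 at 1 week and 6 h, more than any member. Foxo1, a transcription factor known to act on the Cdkn1b gene, fell by 1.89 on the log2 scale at 8 weeks and 24 h and by 1.35 at 1 week and 24 h (adjusted p = 1.21e-11 and 1.74e-09). At 6 h Foxo1 gave -1.10 at 8 weeks and -0.93 at 1 week (adjusted p = 1.49e-08 and 7.05e-08). Cdkn1b gave 0.17 and 0.57 in those 6 h comparisons, and -0.32 at 8 weeks and 0.14 at 1 week at 24 h. Any link between Foxo1 and the level of Cdkn1b was not tested. Foxo1 is also expressed in B-cell precursors, whose summed signal was below every control in the same samples.

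Further lists held genes called in both directions. Of 11 ubiquitin ligase genes that act on G1 regulators, 3 were higher and 3 lower at 8 weeks and 24 h (all genes 38.3% and 19.5%), and 2 and 2 at 1 week and 6 h (25.5% and 26.3%), where Fzr1, the CDH1 activator of the anaphase-promoting complex, rose by 0.80 ± 0.11. Of 8 CDK-activating and CDC25 or WEE1 genes, 1 was higher and 1 lower at 8 weeks and 6 h (all genes 23.9% and 22.1%), and 2 and 4 at 1 week and 6 h. Cdc25b, a phosphatase that activates CDKs, rose by 0.54 ± 0.09 at 8 weeks and 6 h and by 0.78 ± 0.09 at 1 week and 6 h. Of 13 upstream transcription factors and kinases, 3 were higher and 4 lower at 8 weeks and 6 h, and 2 and 5 at 1 week and 6 h. The lower calls of the last 2 lists at 1 week and 6 h lie above the share of all genes. They also numbered 4 and 5 without 1-week control replicate 2. The lower calls of the ubiquitin ligases at 8 weeks and 24 h lie somewhat above that share too. So do those of the upstream genes at 8 weeks and 6 h. The remaining counts lie near or below the shares of all genes, and none of this was tested.

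For each member, the genes most alike in level over the 18 arrays were found by Pearson's r, as a description of arrays that share their groups. Among those alike to Ccne1 were Prim1 (a DNA primase subunit, r = 0.991) and Cdc6 (a replication licensing factor, 0.988). Cdk4 was closest to Fkbp4 (0.978), Apex1 (0.977) and Polr2e (0.974), and Cdkn2c to Smg6 (0.977), Fam78a (0.975) and Arrdc2 (0.973). Cdk6 had Hsd17b4 (0.969), Lamtor2 (0.967) and Cmtm7 (0.963), and Ccnd2 had Lrp4, Ctbp2 and Pparg (0.949 each). Further genes were near Cdkn1b, with Lats2 (0.948), Ccdc17 (0.932) and Rc3h2 (0.931), and near Ccne2, with Moap1 (0.939), Eif4enif1 (0.917) and Ncapg2 (0.912). Cdk2 had Nsmce3 (0.933) and Rbm22 (0.924) among its nearest. Ccnd3, which varied least, was nearest to Ncoa5 (0.906), Zfp598 (0.905) and Ranbp3 (0.898).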

How the data were processed

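RNA of 18 whole-marrow samples, 3 arrays in each of 6 groups taken from the labels, was hybridised to 1-colour Agilent arrays. Each deposited array file gives an intensity per spot from which background was subtracted by Agilent Feature Extraction (version 11.5.1 per the submitters' processing notes, 9.5.1.1 per the file headers) and not scaled between arrays. The authors' deposited table of values holds log2 values, which matched recomputed 75th percentile shifts with each probe centred on its median (r of at least 0.9999). Its scale and centring were found that way and are not stated in the sources used here. Spot flags in the deposited files are marks of 0 or 1 rather than measurements.

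Control spots and outlier spots were left out, and spots of a probe averaged. Of 41174 probes, 24844 were named through RefSeq accessions, giving 17178 genes, and the brightest probe was used per gene. Each array's 75th percentile was subtracted. The fit took 11884 genes that rose well above background throughout 1 group or more (3 arrays), and left out 5286 dim genes and 8 with an outlier spot. Tests used limma 3.58.1 (R 4.3.3, with version 1.17.8 of data.table) with one mean per group, intensity trend, two-sided, Benjamini-Hochberg within each of 11 comparisons. P-values measure the spread between arrays, whose number limits the precision, and comparisons share control arrays. Marker sums add linear signal over a list.

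The members and lists were chosen with earlier results of these data known. All members were named, with the 3 genes of highest r per member and up to 3 of smallest adjusted p per list and comparison. Other genes were chosen after their values were seen (Myc and Mycn outside their listed comparisons). Some genes that the rule on r names are not reported here. Same-number arrays across groups were not paired (45 pairs, r -0.267 to 0.319, median -0.0145, 9 above 0.1). The 5 slides were scanned on 1 day, and each of 61 within-slide differences of called members had the sign found over all arrays. That sign was fixed in advance wherever the arrays of the compared groups did not overlap. Among the called results, only Ccnd2 for age in controls and Ccne1 for 24 h against 6 h at 8 weeks overlapped. The agreement therefore says little about slide effects. The model was tested on simulated data. Alternatives covered scaling, background, filter, probe choice, trend, slide and replicate blocks, the deposited table, the groups fitted and leaving out each array (for the pathway lists 1-week control replicate 2 alone, chosen after seeing the data). Member protein sequences were not used here.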

Additional observations from a re-analysis of the deposited data

Results flagged for a closer look

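The response to 2 Gy differed between 8-week and 1-week marrow in 10 tests of a difference of differences by limma, each given here as the log2 response at 8 weeks minus that at 1 week. At 24 h the differences were 0.82 for Cdk4, 0.81 for Cdk6, 0.79 for Ccnd2, -0.73 for Ccne2, -0.51 for Cdkn2c and -0.46 for Cdkn1b. At 6 h they were 0.87 for Ccnd2, 0.39 for Cdk4, -0.63 for Cdkn2c and -0.40 for Cdkn1b. Ccnd2, Cdk4, Cdkn1b and Cdkn2c differed at both times. The Cdk6 value rests on one of its 2 probes. The Ccne2 value also missed the threshold by its second probe (-0.54, adjusted p = 0.166) and with the mean of its probes (-0.63, adjusted p = 0.0655). With normexp background correction the 6 h values of Cdk4, Cdkn1b and Cdkn2c missed the threshold. The 24 h value of Cdkn1b did so too (-0.31, adjusted p = 0.0707).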

How the results depend on the processing

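Of 60 member differences past the threshold among 99, 43 stayed there under every alternative run, leaving out single arrays included. Among 1020 recomputed values of the 60, 949 kept direction and side, 70 missed the threshold and 1 turned. That one was Cdk6 at 8 weeks and 24 h, -0.14 with the mean of a gene's probes. Among 672 recomputed values of the others, 15 passed, and Ccnd3 at 8 weeks and 24 h turned to -0.20 with quantile scaling (adjusted p = 0.0292), while 42 others changed sign without passing in either fit. Averaging probes left 4 members called at 8 weeks and 24 h in place of 7. Normexp left 1 in place of 4 for the 6 h difference between ages. The planned normexp on mean spot signal was not run, as the files hold the median. It was run on medians with backgrounds of outlier spots set to the array median, chosen after seeing the data, since both ways of fitting it had failed on 8-week 24 h replicate 3.

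Leaving out single arrays gave 4 to 4 members called at 1 week for both times, 4 to 5 at 8 weeks and 6 h (6 with all arrays) and 6 to 7 at 24 h. It gave 4 to 6, 5 to 7 and 7 to 7 for age in controls, at 6 h and at 24 h, 3 to 6 and 5 to 7 for the 6 h and 24 h differences of response, and 4 to 4 and 5 to 7 for 24 h against 6 h at 1 week and 8 weeks. Cdk4 missed the threshold for the 6 h difference without 1-week 6 h replicate 1 (0.33, adjusted p = 0.0508), and Cdk2 passed for the 24 h one without 1-week control replicate 3 (-0.62, adjusted p = 0.0418). The replicate block, which the arrays' numbers do not warrant, left 4 of 6 members called at 8 weeks and 6 h, losing Cdk6 (-0.24, adjusted p = 0.0515) and Cdkn1b (0.17, adjusted p = 0.0635), and lost Cdk2 for age at 6 h (-0.38, adjusted p = 0.0552). Slide as a block lost the same 3 calls (Cdk6 -0.29, adjusted p = 0.0522, Cdkn1b 0.19, adjusted p = 0.0677, Cdk2 -0.40, adjusted p = 0.0602). It also lost Cdk2 at 8 weeks and 24 h (-0.36, adjusted p = 0.0849), Ccne2 for the 24 h difference of response (-0.50, adjusted p = 0.0909) and Cdkn1b for the 6 h one (-0.38, adjusted p = 0.0678). Ccne2 for age at 6 h passed under both blocks (slide -0.47, adjusted p = 0.0174, replicate -0.39, adjusted p = 0.0454). With slide as a block the count over all genes for the 6 h difference was 1370 against 2210. Quantile scaling lowered the share of higher calls at 8 weeks and 24 h to 59.6% against 66.2%. The causes were not tested.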
